A study of Rattus norvegicus with 3 samples.

Results

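The genes described here encode the cytosolic translation initiation factors (symbols that begin with EIF) and translation elongation factors (symbols that begin with EEF). They were chosen by symbol alone, leaving out EEF1E1, which belongs to the tRNA synthetase complex, and 66 of the 12758 genes in the table qualified. EIF4G1 was listed 2 times, so that the 66 genes filled 67 of 12771 entries. The study asked which RNAs are found outside the cell bodies of the spinal cord, in material enriched for axons, and how they differ after spinal cord injury (SCI). Female Sprague Dawley rats aged 3 months had the lamina removed at T9, and in the SCI group the cord was then contused, while the No-SCI group had this laminectomy and no contusion. Tissue was taken 24 h later at T8, just rostral to the injury, digested in the cold with a cold active protease and spun to remove cells, and the RNA of the supernatant was sequenced as strand-specific total RNA after ribosomal RNA removal. By their labels, 2 libraries are No-SCI and 1 is SCI, while the methods give 2 animals per condition.

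Each gene had 1 value per group, in FPKM, a count of sequenced fragments scaled for transcript length and library size, so that levels can be compared per length. The methods state that all libraries were brought to the same number of reads, but no replicate values and no counts per gene came with the values. The number of reads behind a gene's value is therefore unknown, no spread between animals could be set beside any difference, and no test was possible. All differences are given as a log2 ratio, SCI over No-SCI, a description of these libraries in which 0 means equal levels and 1 or -1 a 2-fold difference. In such bulk material, fewer cells or axons of a kind and less RNA in each of them cannot be told apart.

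Initiation factors bring the initiator tRNA, the small ribosomal subunit and the capped mRNA together and find the start codon, and elongation factors then deliver each aminoacyl-tRNA and move the ribosome along the message. The eIF2 and eIF4 families carry the main switches: phosphorylation of eIF2 lowers initiation at most mRNAs under stress, and the eIF4E-binding proteins hold the cap-binding protein eIF4E until TOR signalling releases it. In neurons, part of this machinery lies in axons and dendrites, where proteins can be made far from the cell body.

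The factor genes were abundant in both groups. Their median was 50.8 FPKM in No-SCI and 47.1 FPKM in SCI, against 17.2 and 15.6 FPKM over all 12758 genes, and 55 of the 66 lay above the all-gene median in No-SCI. At the top stood EEF1A1, the main carrier of aminoacyl-tRNA, with 4378 FPKM in No-SCI and 3658 FPKM in SCI (ranks 23 and 31 of all genes). EIF5A, which helps ribosomes past difficult peptide bonds, had 3079 FPKM in No-SCI and 3641 FPKM in SCI (ranks 41 and 32). EEF1D, part of the exchange factor that reloads eEF1A with GTP, had 1135 FPKM in No-SCI and 1874 FPKM in SCI. No other factor gene exceeded 1000 FPKM in either group, and 6 lay under 10 FPKM in each group.

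**Figure D1:**
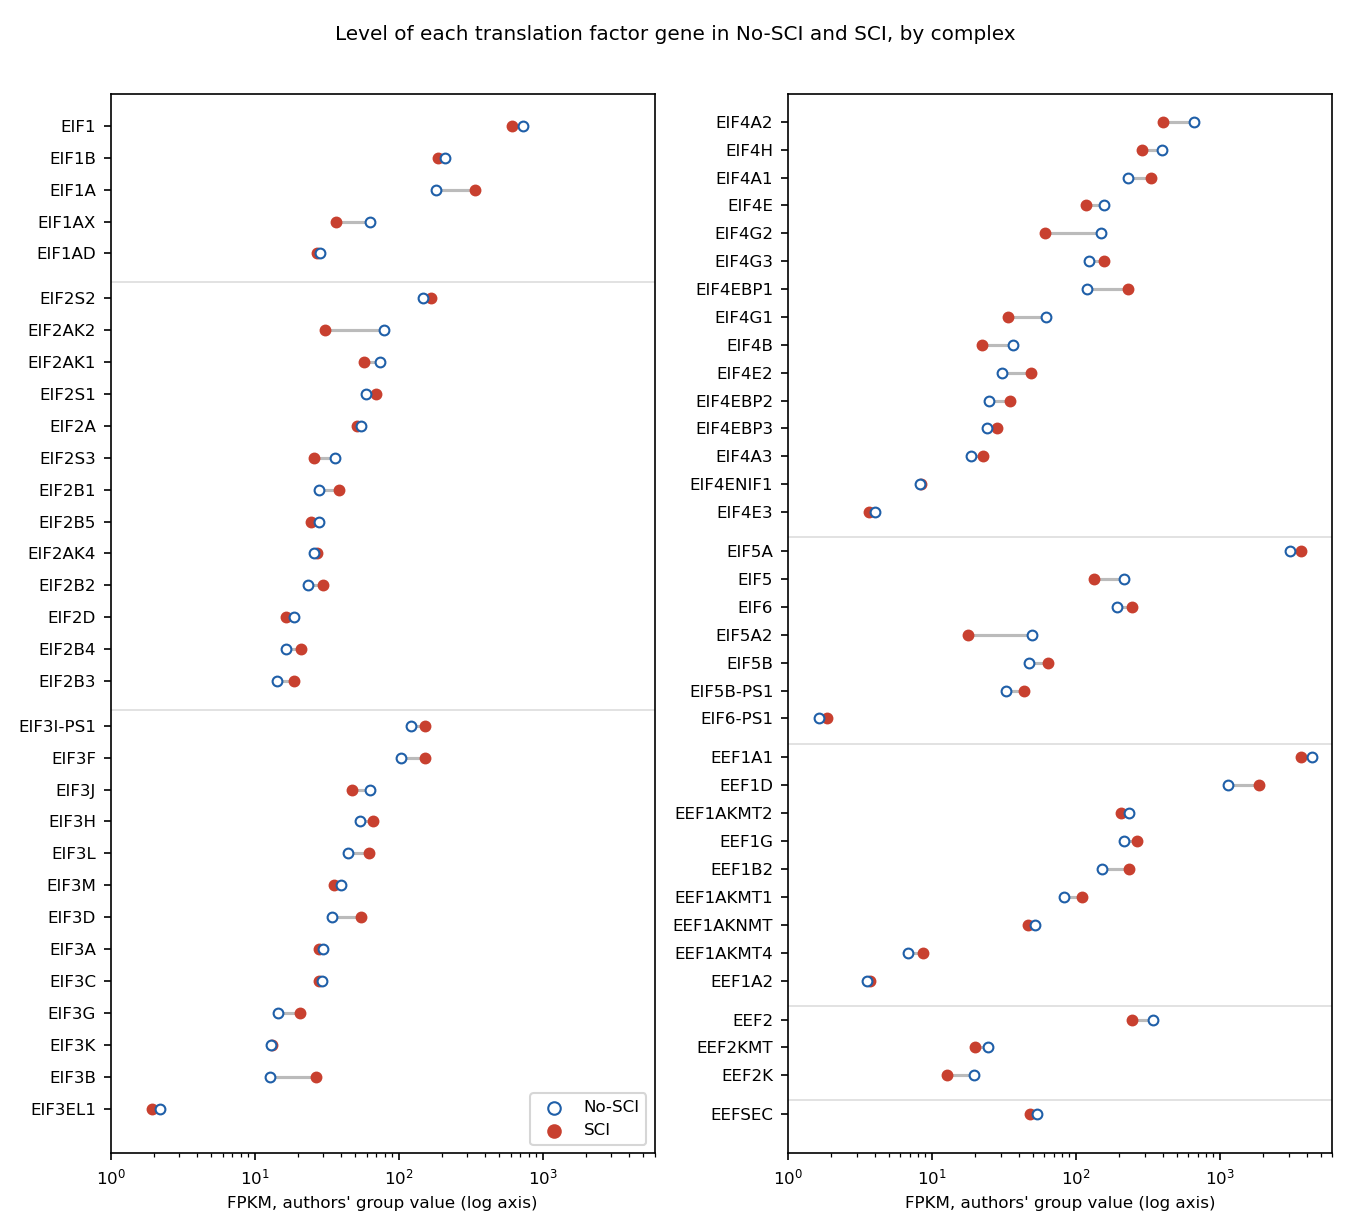
Level of the 66 factor genes in FPKM (log axis) in No-SCI (open circles) and SCI (filled circles), grouped by family and ordered by the No-SCI level. Each point is the authors' value for a group, without error bars; EEF1A1, EIF5A and EEF1D stand above 1000 FPKM, and the longest lines belong to EIF5A2, EIF2AK2 and EIF4G2, which were lower in SCI.

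Between the groups, 35 factor genes were higher and 31 lower in SCI, where 56.4% of all genes were lower, with a median log2 ratio of 0.05 against -0.12 over all genes. Only 4 of the 66 were at least 2-fold apart. EIF3B was higher in SCI, which is 1.52% of the members against 7.93% of all genes. EIF5A2, EIF2AK2 and EIF4G2 were lower in SCI, which is 4.55% of the members against 12.1% of all genes. At 1.5-fold, 7 members were higher (all genes 16.9%) and 9 lower (all genes 26.3%). At 1.3-fold, 17 were higher (all genes 24.6%) and 14 lower (all genes 35.7%). The median size of the log2 ratio, whatever its sign, was 0.35 for the factor genes and 0.50 for all genes. Among the 53 members with a mean of at least 20 FPKM, 0 were 2-fold higher and 3 were 2-fold lower, beside 6.06% and 10.6% of the 5854 genes at that level. There the median log2 ratios were nearly equal, -0.057 for the members and -0.062 for all genes, with 49.1% and 46.4% higher. The median sizes were also closer, 0.41 for the members and 0.45 for all genes.

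Centring the median of all genes at 0 adds 0.12 to each log2 ratio, scaling to equal totals adds 0.05 and scaling to equal upper quartiles adds 0.10. EIF4EBP1 then passed 2-fold under all 3 scalings and EIF1A under the median and upper quartile scalings. The signs of 4 members near 0 (EIF1AD, EIF2A, EIF3A and EIF3C) turned positive under the median and upper quartile scalings.

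**Figure D2:**
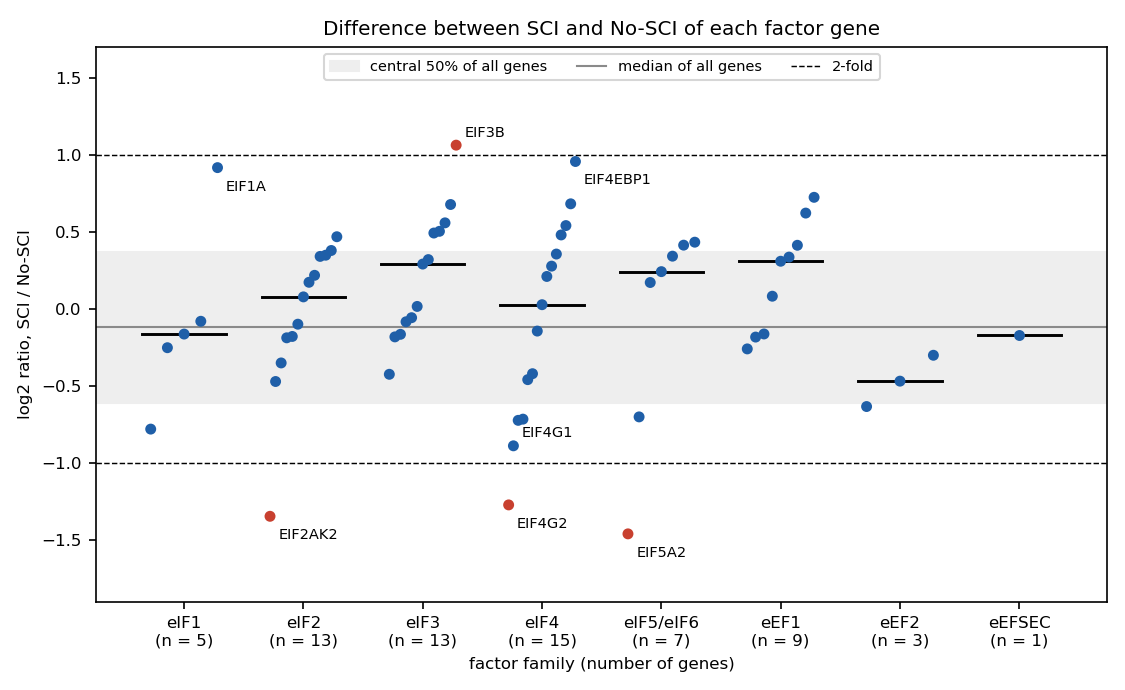
Log2 ratio (SCI over No-SCI) for each factor gene by family, with the family median as a black bar, the 2-fold limits dashed and the central 50% of all genes shaded. EIF3B lies above the upper limit, EIF2AK2, EIF4G2 and EIF5A2 lie below the lower one, and the family medians run from -0.47 (eEF2) to 0.31 (eEF1).

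Many mRNAs of the translation machinery begin with a run of pyrimidines at their very start, through which TOR signalling and LARP1 regulate them as a group. RefSeq promoter windows (GRCr8, 250 bases before to 50 after the annotated start) were matched for 56 of the 66 genes, with 60 windows. A run of at least 7 C or T that starts with C and begins between 5 bases before and 20 after the start, read on the gene's strand, was found in 11 of the 60 windows (18.3%). It was found in 12.4% of all 33469 windows, in 12.1% of the 10771 windows of genes with values here and in 37 of 70 ribosomal protein windows (52.9%). The windows of EEF1A1 (chr8:88225045-88225089, minus strand), EEF1B2 (chr9:72074071-72074115, plus strand), EIF3F (chr1:172369042-172369086, plus strand) and EIF2S3 (chrX:62933675-62933719, minus strand) are shown because they share the run, in capitals, while their levels differed in opposite directions.
EEF1A1: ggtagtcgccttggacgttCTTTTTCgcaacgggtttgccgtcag
EEF1B2: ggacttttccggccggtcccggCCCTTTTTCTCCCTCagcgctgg
EIF3F: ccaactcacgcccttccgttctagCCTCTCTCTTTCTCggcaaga
EIF2S3: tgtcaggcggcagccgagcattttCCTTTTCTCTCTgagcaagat

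The log2 ratio was -0.26 for EEF1A1 and -0.47 for EIF2S3, but 0.62 for EEF1B2 and 0.56 for EIF3F. The 11 genes with the run had a median log2 ratio of -0.16 and the 45 matched genes without it 0.08. The run is a match of letters near an annotated start, and the values themselves were made on another build, rn6.

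Start codon selection is the task of eIF1 and eIF1A, which bind the small subunit while it scans. EIF1 had 728 FPKM in No-SCI and 612 FPKM in SCI (log2 ratio -0.25), and its paralog EIF1B 210 and 188 FPKM (-0.16). The ratio of EIF1 to EIF1B was nearly the same in both groups, 3.46 in No-SCI and 3.26 in SCI. The eIF1A genes went apart. EIF1A had 181 FPKM in No-SCI and 342 FPKM in SCI (log2 ratio 0.92, 1.89-fold higher), whereas the X-linked EIF1AX had 63.1 and 36.7 FPKM (-0.78). The ratio of EIF1A to EIF1AX was accordingly 2.87 in No-SCI and 9.30 in SCI. Both genes encode nearly the same protein, so the split of reads between them is uncertain, and this ratio was chosen after the values were seen. EIF1AD, a gene with an eIF1A-like domain, had 28.6 FPKM in No-SCI and 27.0 FPKM in SCI (-0.08, with a positive sign after centring).

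The 3 subunits of eIF2, the carrier of the initiator tRNA, did not move as a block. EIF2S1, the alpha subunit that stress kinases phosphorylate, had 59.9 FPKM in No-SCI and 69.6 FPKM in SCI (log2 ratio 0.22). EIF2S2, the beta subunit, had 148 and 167 FPKM (0.17). EIF2S3, the gamma subunit that binds GTP and the tRNA, had 35.9 and 25.9 FPKM (-0.47). EIF2S1 thus exceeded it 1.67 times in No-SCI and 2.69 times in SCI. That ratio was not among the pairs chosen in advance, and it sets the highest log2 ratio of the 3 against the lowest. EIF2S3 was the lowest of the 3 in both groups.

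The exchange factor eIF2B, which recharges eIF2 with GTP and is blocked by phosphorylated eIF2, showed closely matched levels. Its 5 subunit genes lay between 14.4 and 27.9 FPKM in No-SCI, a 1.94-fold range, and between 18.7 and 38.6 FPKM in SCI, a 2.06-fold range. The 4 genes EIF2B1, EIF2B2, EIF2B3 and EIF2B4 were higher in SCI by log2 ratios of 0.47, 0.34, 0.38 and 0.35. EIF2B5, the catalytic subunit, had 27.8 FPKM in No-SCI and 24.6 FPKM in SCI (-0.18) and was the only one of them that was lower. Summed, the subunits gave 110 FPKM in No-SCI and 133 FPKM in SCI.

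The eIF2 kinases held the most marked difference of the family. EIF2AK2, the interferon-induced kinase PKR that senses long RNA duplexes, had 78.8 FPKM in No-SCI and 31.0 FPKM in SCI (log2 ratio -1.35, 2.54-fold lower). EIF2AK1, the heme-regulated kinase, had 73.8 and 57.9 FPKM (-0.35). EIF2AK4, the amino acid sensor GCN2, had 25.7 and 27.2 FPKM (0.08). In No-SCI, EIF2AK2 was the highest of the 3, and in SCI EIF2AK1 stood above it. The kinase EIF2AK3 had no entry under that name.

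The EIF2AK2 window (GRCr8, chr6:21941108-21941177, plus strand) is shown because it holds the letters GAAANNGAAA, the core of the element through which interferon acts, in capitals and starting 16 bases before the annotated start.
EIF2AK2: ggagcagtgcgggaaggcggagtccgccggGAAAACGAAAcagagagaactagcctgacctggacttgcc

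Searched on both strands, these letters were in 3.92% of all windows and in 2.84% of the 10771 windows of genes with values here. Of the 60 factor windows, 5 held them (8.33%). The other 4 were those of EIF2A, EIF2S3, EIF3K and EIF6, and in EIF2A and EIF2S3 the match overlaps the pyrimidine run. Of the 5 genes, EIF6 had a log2 ratio of 0.34 and EIF3K of 0.02, so that the genes with the letters did not share a direction.

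EIF2A and EIF2D, which can place a tRNA on the ribosome without eIF2, had 55.2 and 18.8 FPKM in No-SCI and 51.5 and 16.5 FPKM in SCI. The log2 ratios were -0.10 for EIF2A, with a positive sign after centring, and -0.19 for EIF2D. Over all 13 genes of the eIF2 family the median log2 ratio was 0.08 and the mean -0.05, so the sign of the family depended on the summary.

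Regulators of eIF2 outside the family were set beside it from a list of 5 phosphatase genes and GCN2 partners, whose median log2 ratio was -0.17. None was 2-fold higher (all genes 7.93%) and 2 were 2-fold lower (all genes 12.1%). PPP1R15B, the constitutive partner that directs a phosphatase to eIF2, had 12.5 FPKM in No-SCI and 5.12 FPKM in SCI (-1.29), while the stress-induced PPP1R15A had 45.0 and 46.4 FPKM (0.04). IMPACT, an inhibitor of GCN2 that is abundant in neurons, had 22.4 and 8.60 FPKM (-1.38).

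The scaffold eIF3, which holds the small subunit and the mRNA complex together, had a median log2 ratio of 0.29. Of its genes 8 were higher and 5 lower, where 43.6% of all genes were higher. EIF3B had 12.8 FPKM in No-SCI and 26.8 FPKM in SCI (log2 ratio 1.06, 2.09-fold higher), the only factor gene 2-fold higher in SCI. It was the least abundant of the 11 subunit genes in No-SCI and not in SCI, where EIF3K had 13.2 FPKM. EIF3D, a subunit that can itself contact the mRNA cap, had 34.4 and 55.0 FPKM (0.68), and EIF3F, the most abundant gene named as a subunit, 104 and 153 FPKM (0.56). EIF3G, EIF3L and EIF3H were also higher, with log2 ratios of 0.50, 0.49 and 0.29.

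The remaining eIF3 subunits were level or lower. EIF3K had 13.0 FPKM in No-SCI and 13.2 FPKM in SCI. EIF3C had 29.2 and 28.1 FPKM (-0.06) and EIF3A, the largest subunit, 29.9 and 28.2 FPKM (-0.08), and both signs were positive after centring. EIF3M had 40.1 and 35.7 FPKM (-0.16). EIF3J, a loosely bound subunit that leaves the complex during initiation, had 63.8 and 47.5 FPKM (-0.42), the lowest ratio of the family.

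Levels of eIF3 subunits that assemble into 1 particle were unequal, with an 8.11-fold range over the 11 genes in No-SCI and an 11.6-fold range in SCI. Within EIF3A, EIF3B, EIF3C and EIF3G the range was narrower in SCI, 1.36-fold against 2.33-fold in No-SCI, since the lower pair EIF3B and EIF3G was higher there. This group was not among those chosen in advance, and over all 11 genes the range was wider in SCI. EIF3E and EIF3I had no entry under their own names. The entry EIF3I-PS1, named as a pseudogene, had 122 and 152 FPKM (log2 ratio 0.32), and EIF3EL1, a copy of EIF3E, had 2.19 and 1.94 FPKM (-0.18). Reads of the parent genes cannot be told apart from those of such copies here.

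The cap-binding machinery of the eIF4 family was split between genes higher and lower in SCI, with a median log2 ratio of 0.03 and a mean of -0.07 over 15 genes. Of the 7 genes that do the work of cap-dependent initiation (EIF4E, EIF4G1, EIF4G3, EIF4A1, EIF4A2, EIF4B and EIF4H), 5 were lower (all genes 56.4%), with a median of -0.46. Of the repressors of eIF4E, 3 were higher and EIF4ENIF1 was level (0.03), where 43.6% of all genes were higher. Both groups were formed with earlier results of these data known, and the contrast between them was not tested.

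EIF4E, the protein that grips the cap, had 157 FPKM in No-SCI and 117 FPKM in SCI (log2 ratio -0.42). EIF4EBP1, which blocks eIF4E until TOR phosphorylates it, had 119 FPKM in No-SCI and 232 FPKM in SCI (0.96, 1.94-fold higher). Its paralogs EIF4EBP2, the main form in brain, and EIF4EBP3 had 24.9 and 24.3 FPKM in No-SCI and 34.7 and 28.1 FPKM in SCI (0.48 and 0.21). EIF4EBP1 was the most abundant of the 3 in both groups, at 4.79 times EIF4EBP2 in No-SCI and 6.67 times in SCI. Together, the 3 binding proteins summed to 1.08 times the EIF4E level in No-SCI and 2.51 times in SCI, a ratio chosen after the values were seen. EIF4ENIF1, which carries eIF4E to the nucleus and to RNA granules, had 8.25 and 8.40 FPKM (0.03).

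The cap-binding paralogs differed from EIF4E. EIF4E2, which binds caps but represses translation, had 30.5 FPKM in No-SCI and 48.9 FPKM in SCI (log2 ratio 0.68), and EIF4E3 was low in both groups at 4.04 and 3.65 FPKM (-0.14).

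Among the scaffolds, EIF4G2 was 2.41-fold lower in SCI, with 148 FPKM in No-SCI and 61.4 FPKM in SCI (log2 ratio -1.27). Its product, DAP5, lacks the eIF4E-binding part and serves cap-independent initiation. EIF4G1, the main scaffold, had 62.3 and 33.7 FPKM (-0.89), and its other entry had 30.8 and 17.9 FPKM (-0.78). EIF4G3 went the other way with 123 and 157 FPKM (0.36). EIF4G3 thus stood at 1.97 times EIF4G1 in No-SCI and 4.66 times in SCI, or at 1.32 and 3.04 times when both EIF4G1 entries were summed.

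The helicase genes that unwind the start of the mRNA went apart as well. EIF4A2, the form abundant in brain, had 661 FPKM in No-SCI and 401 FPKM in SCI (log2 ratio -0.72), while EIF4A1 had 230 and 335 FPKM (0.54). EIF4A2 was 2.88 times EIF4A1 in No-SCI and 1.20 times in SCI, so it remained the higher of the pair. The helicase cofactors EIF4H and EIF4B had 394 and 36.5 FPKM in No-SCI and 287 and 22.2 FPKM in SCI (-0.46 and -0.72). EIF4A3, a component of the exon junction complex rather than of initiation, had 18.6 and 22.5 FPKM (0.28).

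**Figure D3:**
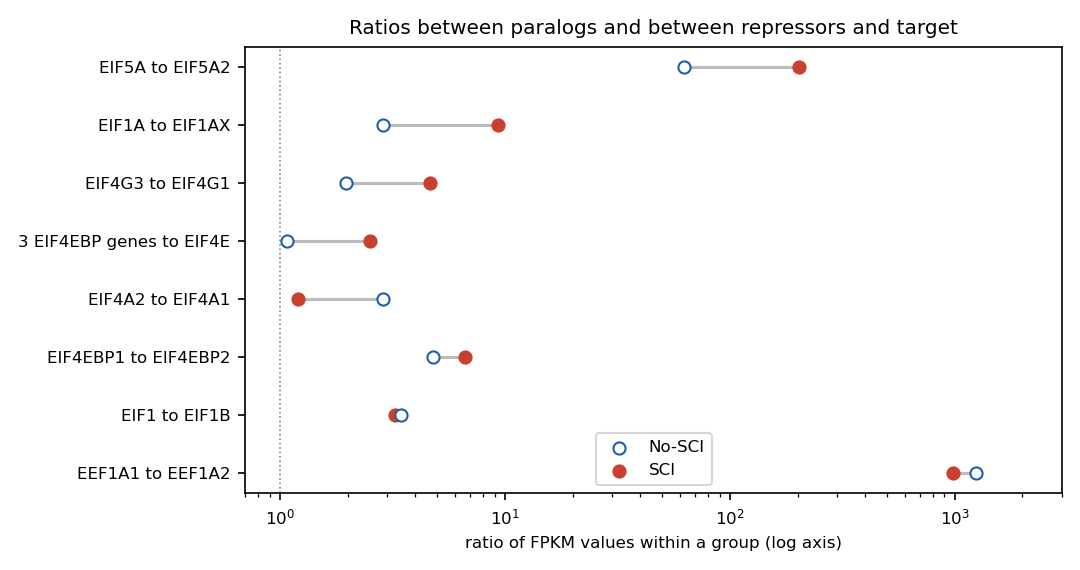
Ratios of FPKM values between paralogs, and of the 3 EIF4EBP genes summed to EIF4E, within No-SCI (open circles) and SCI (filled circles) on a log axis, with 1 dotted. The ratios of EIF5A to EIF5A2 (62.4 and 203) and of EIF1A to EIF1AX (2.87 and 9.30) lie farthest apart, and that of EIF1 to EIF1B (3.46 and 3.26) hardly differs.

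Upstream of the eIF4 factors, 13 genes of TOR and MNK signalling had a median log2 ratio of -0.29, with 0 genes 2-fold higher and 3 2-fold lower (all genes 12.1%). The 3 are known as restraints on TOR, namely TSC1 (20.9 FPKM in No-SCI and 6.27 FPKM in SCI, -1.74), TSC2 (116 and 55.7 FPKM, -1.06) and the stress-induced DDIT4 (15.4 and 6.61 FPKM, -1.22). Parts of the TOR complex itself were lower by less than 2-fold, with MLST8 at 13.7 and 7.08 FPKM (-0.95), RPTOR at 4.49 and 2.75 FPKM (-0.71) and MTOR at 2.73 and 2.27 FPKM (-0.27). RHEB, which activates TOR and is held back by TSC1 and TSC2, was the most abundant of the list at 272 and 303 FPKM (0.15). Of 6 helicases and cofactors the median was -0.55 and none was 2-fold apart. PDCD4, an inhibitor of eIF4A, was the most abundant of them with 331 and 190 FPKM (-0.80). Of 5 poly(A)-binding genes the median was 0.05. PABPC1, the poly(A)-binding protein that contacts eIF4G, had 62.4 and 64.5 FPKM, and the low PAIP2B was the only one 2-fold lower (9.82 and 3.61 FPKM, -1.44).

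At subunit joining, EIF5 and EIF5B went in opposite directions. EIF5, which makes eIF2 hydrolyse its GTP at the start codon, had 216 FPKM in No-SCI and 133 FPKM in SCI (log2 ratio -0.70). EIF5B, the GTPase that joins the large subunit, had 47.2 and 63.7 FPKM (0.43), and the pseudogene entry EIF5B-PS1 had 32.8 and 43.7 FPKM, close to the same ratio (0.41). EIF6, which keeps the subunits apart until they are needed, had 192 and 244 FPKM (0.34).

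The gene with the lowest ratio of all factor genes was EIF5A2, with 49.3 FPKM in No-SCI and 17.9 FPKM in SCI (log2 ratio -1.46, 2.75-fold lower). It is a paralog of EIF5A, and both proteins carry hypusine, an amino acid made on them alone. EIF5A had a log2 ratio of 0.24 and exceeded EIF5A2 62.4 times in No-SCI and 203 times in SCI. The hypusine enzymes had 14.3 and 17.2 FPKM (DHPS, 0.27) and 93.6 and 94.0 FPKM (DOHH, 0.01). The median over the 7 entries of eIF5 and eIF6 was 0.24 and their mean -0.08, which EIF5A2 and EIF5 pull below 0.

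In elongation, the family of eEF1 had a median log2 ratio of 0.31 over 9 genes, 6 of them higher in SCI (all genes 43.6%). Without values of more than 6 digits the median was 0.08. The EEF1A genes (1 of 2 higher) and the methyltransferases (2 of 4 higher) were split. All 3 exchange factor genes were higher, namely EEF1D (log2 ratio 0.72), EEF1B2 with 152 FPKM in No-SCI and 233 FPKM in SCI (0.62), and EEF1G with 215 and 266 FPKM (0.31). Summed, they gave 1501 FPKM in No-SCI and 2374 FPKM in SCI. The carrier EEF1A1 was lower (-0.26), so the ratio of EEF1D to EEF1A1 was 0.259 in No-SCI and 0.512 in SCI. This ratio was not among the pairs chosen in advance. It sets the highest log2 ratio of the family against the lowest.

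EEF1A2, the form that replaces EEF1A1 in mature neurons and muscle, was low in both groups, at 3.53 FPKM in No-SCI and 3.74 FPKM in SCI (log2 ratio 0.08). It stood at the 14.3 percentile of all genes in No-SCI and at the 16.8 percentile in SCI, and EEF1A1 exceeded it 1240 and 978 times. EEF1A1 has many processed copies in mammalian genomes, and how their reads were assigned is not given in the sources used here. Of the 4 methyltransferases of eEF1A, EEF1AKMT1 (82.6 FPKM in No-SCI and 110 FPKM in SCI, 0.41) and EEF1AKMT4 (6.85 and 8.65 FPKM, 0.34) were higher, with ratios above that of EEF1G. EEF1AKMT2, the most abundant, had 235 and 207 FPKM (-0.18), and EEF1AKNMT 52.3 and 46.7 FPKM.

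The 3 genes of eEF2 were lower in SCI, none of them by 2-fold, where 56.4% of all genes were lower. EEF2, which moves the ribosome to the next codon, had 341 FPKM in No-SCI and 247 FPKM in SCI (log2 ratio -0.47). EEF2K, the kinase that inhibits it, had 19.6 and 12.6 FPKM (-0.63), and EEF2KMT, which methylates it, 24.5 and 19.9 FPKM (-0.30). Among the diphthamide genes, which make the modified histidine of eEF2, DPH2 (5.36 and 2.53 FPKM, -1.08) and DPH7 (18.8 and 8.37 FPKM, -1.16) were 2-fold lower, whereas DPH1 (0.21) and DPH5 (-0.27) were not. The list of 6 hypusine and diphthamide genes had a median of -0.13, with 2 genes 2-fold lower (all genes 12.1%) and 0 higher (all genes 7.93%). EEFSEC, which inserts selenocysteine, had 53.6 FPKM in No-SCI and 47.6 FPKM in SCI (-0.17).

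The rest of the translation machinery was set beside the factor genes. Of 94 cytosolic ribosomal protein entries, chosen by symbol, 93 were higher in SCI, where 43.6% of all genes were higher. The exception was RPL28 with 6.93 FPKM in No-SCI and 5.84 FPKM in SCI. The median log2 ratio was 0.63, with 6 entries 2-fold higher (all genes 7.93%) and 0 2-fold lower (all genes 12.1%). Some entries are named as copies, such as RPS15AL1, and RPS9 and RPS9L1 had the same values. The 94 are therefore not all separate measurements. EEF1B2 (0.62) and EEF1D (0.72) lay near the ribosomal protein median, while EEF1A1 and EEF2 lay below 0. Of 16 aminoacyl-tRNA synthetase genes, which charge the tRNAs that eEF1A carries, 13 were lower (all genes 56.4%), with a median of -0.48. Only AARS1 (126 and 59.4 FPKM, -1.09) was 2-fold lower. Of 8 termination and recycling genes the median was 0.23, with GSPT1, the GTPase of termination, at 85.9 and 140 FPKM (0.70) and none 2-fold apart. Of 8 mitochondrial factors the median was -0.13, again with none 2-fold apart.

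**Figure D4:**
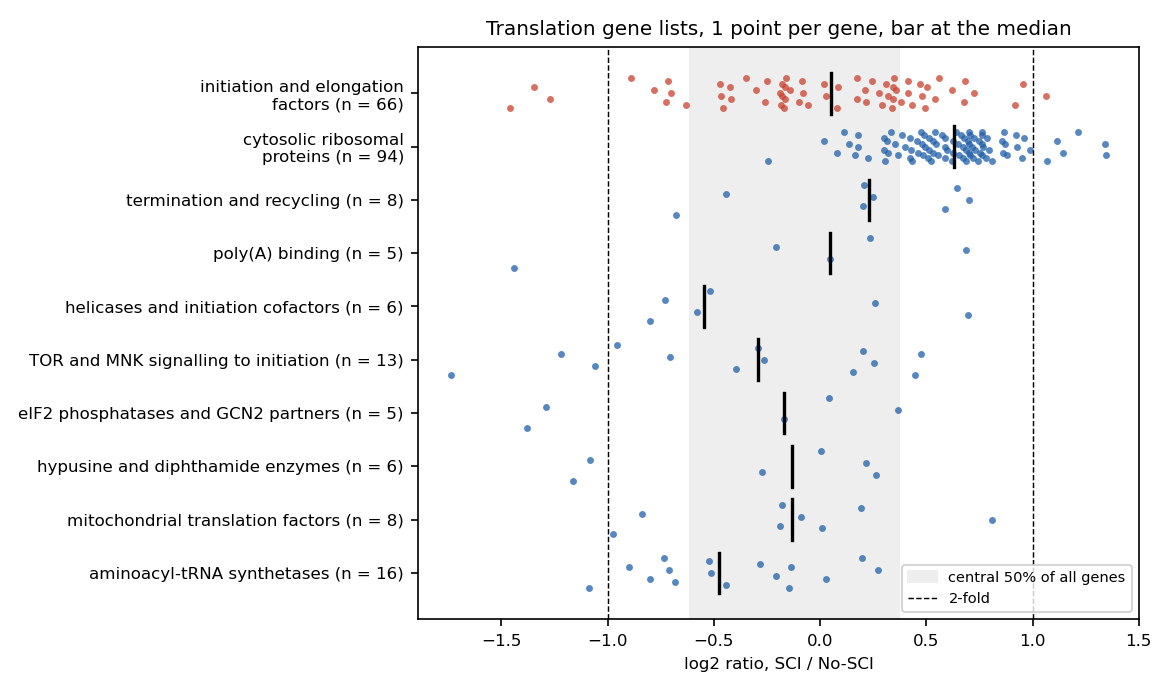
Log2 ratio (SCI over No-SCI) for each gene of the factor families (red) and of other translation lists (blue), with list medians as black bars, the 2-fold limits dashed and the central 50% of all genes shaded. The factor genes spread from -1.46 to 1.06 around a median of 0.05, the ribosomal proteins centre on 0.63 and the aminoacyl-tRNA synthetases on -0.48.

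Marker genes of several cell types also had unequal levels in the groups, in the same single values without replicates. The 14 oligodendrocyte genes summed to 88836 FPKM in No-SCI and 48666 FPKM in SCI. Of them, 9 were 2-fold lower (all genes 12.1%) and 0 higher (all genes 7.93%). Most of the sum came from MOBP (44200 and 27648 FPKM) and BCAS1 (36068.5 and 18311 FPKM), which were lower by less than 2-fold. The 9 astrocyte genes summed to 15193 and 9584 FPKM (6 2-fold lower, 0 higher). Most of that sum came from NDRG2 (8001 and 3228 FPKM) and GLUL, which was level (5858 and 5624 FPKM). GFAP, AQP4 and MBP were among the markers without an entry. The 13 neuron genes summed to 1954 and 1768 FPKM (5 2-fold lower, 0 higher), of which GAP43 alone gave 1275 and 1406 FPKM and the other 12 summed to 679 and 363 FPKM. The 14 microglia and macrophage genes summed to 1274 and 1456 FPKM (3 lower, 2 higher). The 12 meningeal fibroblast genes summed to 83.4 and 925 FPKM (11 2-fold higher, 0 lower) and the 13 skeletal muscle genes to 485 and 137 FPKM (10 lower, 1 higher). The muscle gene that was higher was TPM2, with 42.0 FPKM in No-SCI and 86.5 FPKM in SCI. MYH1 and MYH2, both among the 10, had the same values. The 10 endothelial and mural genes summed to 74.0 and 72.3 FPKM (1 higher, 0 lower), and the 6 blood genes to 584 and 631 FPKM (2 higher, 1 lower), of which HBB gave 490 and 464 FPKM. Their part in the differences of the factor genes was not tested.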

How the data were processed

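RNA of the supernatant was measured in No-SCI and SCI cord. Per the labels and methods, the authors removed ribosomal RNA, cut all libraries to the read number of the smallest, and used STAR 2.5.4b on rn6 and then Cuffdiff 1.3.0 with upper quartile normalization. Each deposited value is the FPKM that the authors obtained for a whole group, 1 per gene and group. The authors' own fold changes, p-values, q-values and significance calls in the same table were not used. No value lies below 1, and 18 values in No-SCI and 37 in SCI equal 1. Values with more than 6 significant digits (26 members, 7474 of 12758 genes) may be sums over entries, which limits comparison of levels between genes. Both genes of the pairs EIF4A1 and EIF4A2, EIF4G1 and EIF4G3, and EIF5A and EIF5A2 are among these members.

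From these values the log2 ratio (SCI over No-SCI, no pseudocount), fold, rank and medians were computed with Python 3.11.15, numpy 2.4.6 and pandas 2.3.3, and the steps were tested on simulated data. Where a symbol had 2 entries (13 symbols), the higher on average stood for the gene. A gene was counted as apart at 2-fold or more. There are no replicate values and no counts, so no test, interval or depth per gene was computed. Members and lists were chosen with earlier results of these data known. Printed in full were genes 2-fold apart, the 2 most abundant and the extreme genes of each family, and paralog pairs, and other members were named within their family. Alternatives were pseudocounts of 1 and 0.1, subtraction of 1, 3 scalings, minimum means of 1 and 5 FPKM, leaving out values with more than 6 digits, summing repeated entries, fold minimums of 1.3 and 1.5 and means for medians. Promoter sequences and positions are RefSeq's on GRCr8.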

Additional observations from a re-analysis of the deposited data

How the results depend on the processing

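There were 131 alternative values for the median of the factor genes, the family medians, the counts 2-fold apart and the ratio of EEF1A2 to EEF1A1. Of them, 119 stayed within 0.2 on the log2 scale with the same sign or, for counts, within 1.5 times. Some settings could not change a value, here or for the single genes below. A minimum mean of 1 FPKM removed no gene, and summing repeated entries touched only EIF4G1 among the factor genes. Scaling leaves a ratio between genes unchanged. The counts of unchanged values include these fixed outcomes. The number of factor genes 2-fold higher in SCI, 1 as reported, was 3 with the median of all genes centred at 0, 2 with equal totals and 3 with equal upper quartiles. At 1.3-fold, 17 were higher and 14 lower, and at 1.5-fold 7 were higher and 9 lower, as a lower minimum must count more genes. Leaving out values with more than 6 digits gave medians of -0.0104 for eIF2 and 0.0826 for eEF1, over fewer genes. It also gave 2 factor genes 2-fold lower in place of 3, as EIF5A2 was left out. Means in place of medians gave -0.0481 for eIF2, -0.0726 for eIF4 and -0.0796 for eIF5 and eIF6. For the 30 genes printed in full, 282 of 287 alternative values kept their sign and their side of 2-fold, and the other 5 were EIF1A (1.03 with median centring and 1.02 with equal upper quartiles) and EIF4EBP1 (1.07 with median centring, 1.002 with equal totals and 1.06 with equal upper quartiles). Leaving out the 4 paralog and pseudogene entries, or taking the smaller EIF4G1 entry, were chosen after seeing the data. Leaving out each replicate could not be run and no paired analysis was possible because the table holds 1 value per group, and the spread between animals and the reads behind each value are unknown.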
